A study of Mus musculus with 12 samples.

Results

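The Mest domain is an imprinted stretch of mouse chromosome 6. It was followed here through 9 genes: Mest, Copg2os2, Copg2 and Klf14 in the domain, and Cep41, Tsga13, Mkln1, Ube2h and Zc3hc1 beside it. The genes were listed by symbol and position, and the locus was chosen on a readout of these same libraries, the counts of 0 for Copg2os2 in the K412R teratomas against those in WT. Of the 38986 genes that each library listed, these were 9, and all 9 were among the 18405 genes that passed the filter on low counts. Because K412R was part of the choice, its values at the locus are given as a description with no p-value. The comparisons that leave K412R out are given with their tests, without a p-value for Copg2os2 where WT is involved.

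Imprinted genes are transcribed from 1 parental copy. Which copy is silent is set by DNA methylation laid down in the germ line, and Dnmt3L, a catalytically inactive partner of the de novo methyltransferases, is needed for the marks placed in oocytes. Mest is a textbook case: its promoter is methylated on the maternal copy and the gene is transcribed from the paternal one, while Klf14, further along the chromosome, is transcribed from the maternal copy. Mest codes for an enzyme-like protein of the endoplasmic reticulum that is abundant in embryonic mesoderm and brain, and Klf14 for a Krüppel-like transcription factor. Copg2 codes for a subunit of the coatomer that coats transport vesicles, and Copg2os2 is named as a transcript on the strand opposite to it. Counts per gene do not show from which parental copy an RNA came, and no methylation data were used here.

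RNA was read from 12 teratomas, tumours with tissues of several germ layers that pluripotent cells form under the skin. All came from R1 mouse embryonic stem (ES) cells kept in serum and LIF and selected with puromycin after infection with a lentivirus that drives its insert from the CAG promoter. The groups, with 3 teratomas each, carried the empty vector (ET, the control), wild-type Dnmt3L (WT), or Dnmt3L with a lysine-to-arginine substitution at an acetylated residue (K238R and K412R), and the host animals were 8-week-old male immunodeficient NOD-Prkdc EM1 mice from which the tumours were taken at day 21. Each construct was 1 stable cell population, so the 3 teratomas of a group share their starting cells, and RNA of the host mouse may be included in a bulk sample. In bulk tissue, fewer cells of a type and less RNA per cell cannot be told apart.

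Library totals lay between 16957677 and 18546100 counts, and a single RNA, Gm26917, took 7.47% to 13.9% of them. Values are given as CPM, the counts of a gene per 1000000 counts of its library. The transcript of the construct, Dnmt3l, was at 3.49 ± 3.66 CPM in ET, 191 ± 22.2 in WT and 34.4 ± 7.29 in K412R (mean ± SD, n = 3). In the 3 libraries labelled K238R it was at 1.18 ± 0.675 CPM, no higher than in ET, so these are called K238R-labelled throughout, and a direction drawn from them is one of the libraries so labelled. Markers of neurons, mesenchyme, skeletal muscle, fat cells, and surface epithelium and gut were all detected in each group. Of the trophoblast markers 3 were at 0 in all WT libraries, and of the germ cell and testis markers 2 were at 0 in WT and 1 in each other group.

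The start sites of Mest and Copg2 are shown because Mest had the largest fitted difference, K412R against WT, among the members with counts in every group, while Copg2 lies beside it on the opposite strand. RefSeq promoter windows of 300 bases (250 before and 50 after an annotated start) matched 7 of the 9 members in 10 windows. The sequences are from build GRCm38.p6, printed 5′ to 3′ on the gene's strand with each CG dinucleotide in capitals.
Mest, upstream start (chr6:30733256-30733555, plus strand): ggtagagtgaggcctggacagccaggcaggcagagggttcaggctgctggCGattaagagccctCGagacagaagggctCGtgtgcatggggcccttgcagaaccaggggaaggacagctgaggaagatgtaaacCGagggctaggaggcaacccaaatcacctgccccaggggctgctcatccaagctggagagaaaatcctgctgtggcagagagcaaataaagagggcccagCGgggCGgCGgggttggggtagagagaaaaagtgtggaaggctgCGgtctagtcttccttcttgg
Mest, downstream start (chr6:30737800-30738099, plus strand): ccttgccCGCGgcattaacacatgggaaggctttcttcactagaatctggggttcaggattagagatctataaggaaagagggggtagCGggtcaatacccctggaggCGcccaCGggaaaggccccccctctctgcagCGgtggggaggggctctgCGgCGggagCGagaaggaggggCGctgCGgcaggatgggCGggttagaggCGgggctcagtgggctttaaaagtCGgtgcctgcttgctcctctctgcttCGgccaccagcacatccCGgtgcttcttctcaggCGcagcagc
Copg2 (chr6:30896745-30897044, minus strand): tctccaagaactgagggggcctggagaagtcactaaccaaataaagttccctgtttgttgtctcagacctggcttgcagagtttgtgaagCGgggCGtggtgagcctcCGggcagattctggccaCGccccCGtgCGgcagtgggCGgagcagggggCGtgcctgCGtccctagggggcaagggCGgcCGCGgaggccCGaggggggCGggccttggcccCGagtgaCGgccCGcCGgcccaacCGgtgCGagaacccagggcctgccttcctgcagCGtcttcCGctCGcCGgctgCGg

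CG dinucleotides, the sites at which DNA is methylated, numbered 17 in the downstream Mest window, 8 in the upstream one and 25 in that of Copg2. The median over all 32851 RefSeq windows was 7, and 68.6% of windows held fewer than the downstream Mest window. The hexamer TGCCGC, the recognition motif of the imprint-protecting zinc finger protein Zfp57, was searched on both strands. It occurred 2 times in the downstream Mest window, 1 time in the Copg2 window and in no other window of a member, while 11.6% of all windows held it. The windows of Cep41 and Mkln1 held 19 CG each, that of Zc3hc1 12, that of Tsga13 2, and the 2 windows of Ube2h 21 and 4. A second annotated Mest start 3 bases further on gave the same counts as the downstream window. These matches describe the letters of the windows and say nothing of methylation or binding in the teratomas. The submitters name build GRCm39 for the counts, so no other coordinates are given.

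Mest set the K412R teratomas apart from every other. Its CPM was 1246, 2001 and 1052 in the 3 ET teratomas and 1838, 2614 and 2623 in WT. It was 1213, 2343 and 1650 in the K238R-labelled libraries and 476, 442 and 507 in K412R. All 3 K412R teratomas lay below each of the other 9, whereas the other groups overlapped. The group means were 1433 ± 502 CPM in ET, 2359 ± 451 in WT, 1736 ± 570 in the K238R-labelled libraries and 475 ± 32.3 in K412R (mean ± SD, n = 3). In the order WT, K238R-labelled, ET and K412R, only the step from ET to K412R was free of overlap between neighbouring groups. The K412R mean was 3.02 times lower than that of ET, 4.97 times lower than that of WT and 3.65 times lower than that of the K238R-labelled libraries.

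Copg2os2, on whose counts the locus was chosen, had 36, 96 and 0 counts in ET and 114, 173 and 296 in WT. It had 36, 241 and 162 counts in the K238R-labelled libraries and 0 in all 3 K412R teratomas. The 0 was shared by ET replicate 3, the teratoma with the lowest Mest outside K412R, so ET and K412R overlapped for this transcript. Mean levels were 2.57 ± 2.87 CPM in ET, 11.0 ± 5.37 in WT and 8.04 ± 5.76 in the K238R-labelled libraries (mean ± SD, n = 3). With the pooled K412R libraries set at the 3 counts that a count of 0 allows, the observed pooled Copg2os2 was 44.8-fold higher in ET and 195-fold higher in WT. It was 142-fold higher in the K238R-labelled libraries. These values allow for counting error in K412R only, not in the other group, and ET replicate 3 was itself at 0. Copg2os2 lies on the strand opposite to Copg2 and was not in the annotations used here. The strand setting of the counting was not given in the sources used here, and the counts are estimates that share reads among transcripts, so reads of this transcript and of genes it overlaps cannot be told apart.

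Klf14, which is transcribed from the maternal copy, lay higher in K412R, where Mest lay lower. Its counts were low. The ET teratomas had 15, 20 and 10 counts (0.853, 1.18 and 0.556 CPM) and the WT teratomas 18, 43 and 30 (1.01, 2.40 and 1.71 CPM). The K238R-labelled libraries had 11, 26 and 19 counts (0.593, 1.45 and 1.03 CPM) and the K412R teratomas 51, 44 and 51 (2.84, 2.49 and 2.86 CPM). The K412R teratomas were the 3 highest of the 12, though WT replicate 2 was close to them. The exact Poisson 95% interval of WT replicate 2 was 1.74 to 3.23 CPM and that of K412R replicate 2 was 1.81 to 3.34 CPM, so the intervals of these 2 libraries overlapped. The K412R mean of 2.73 ± 0.211 CPM was 3.17 times that of ET (0.863 ± 0.312), 1.60 times that of WT (1.71 ± 0.693) and 2.67 times that of the K238R-labelled libraries (1.02 ± 0.426, SD, n = 3).

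Copg2 itself differed less between the groups than Mest did. The ET teratomas had 61.0, 63.2 and 65.9 CPM and the WT teratomas 63.7, 59.9 and 52.8 CPM. The K238R-labelled libraries had 67.9, 58.8 and 70.0 CPM and the K412R teratomas 74.4, 67.7 and 75.2 CPM. K412R overlapped the K238R-labelled libraries and lay above ET and WT, and the share of all genes that separate so between groups was not counted. The K412R mean of 72.5 ± 4.11 CPM was 1.14 times the ET mean of 63.4 ± 2.50 and 1.23 times the WT mean of 58.8 ± 5.52 (SD, n = 3). In GENCODE M21 the annotated ends of Mest and Copg2 overlap on opposite strands. Reads from the overlap cannot be told apart without the strand.

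The flanking members differed less between the groups than Mest did. Cep41, which codes for a protein of cilia and centrosomes, was at 13.9 ± 1.01 CPM in ET, 15.6 ± 1.05 in WT, 13.4 ± 1.16 in the K238R-labelled libraries and 14.4 ± 0.069 in K412R (mean ± SD, n = 3). Ube2h, a ubiquitin-conjugating enzyme, had group means of 118.7 to 129.1 CPM. Mkln1, which codes for muskelin, a part of a ubiquitin ligase complex, had group means of 74.1 to 82.6 CPM. All groups overlapped for Ube2h and for Mkln1. Cep41 ranged from 13.0 to 15.0 CPM in ET, 14.7 to 16.7 in WT, 12.1 to 14.4 in the K238R-labelled libraries and 14.4 to 14.5 in K412R. Tsga13, named as a testis-specific gene, had 13 to 33 counts in every teratoma, with group means of 0.900 to 1.26 CPM. Zc3hc1, which codes for a nuclear zinc finger protein, had 19.5, 16.9 and 23.0 CPM in the ET teratomas and 17.7, 13.7 and 14.8 CPM in the WT teratomas. Its level was 20.6, 16.5 and 18.7 CPM in the K238R-labelled libraries and 17.2, 15.8 and 16.3 CPM in K412R. For Zc3hc1 the WT and ET values overlapped, while ET replicate 3 was the highest and WT replicate 2 the lowest of the 12.

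**Figure D1:**
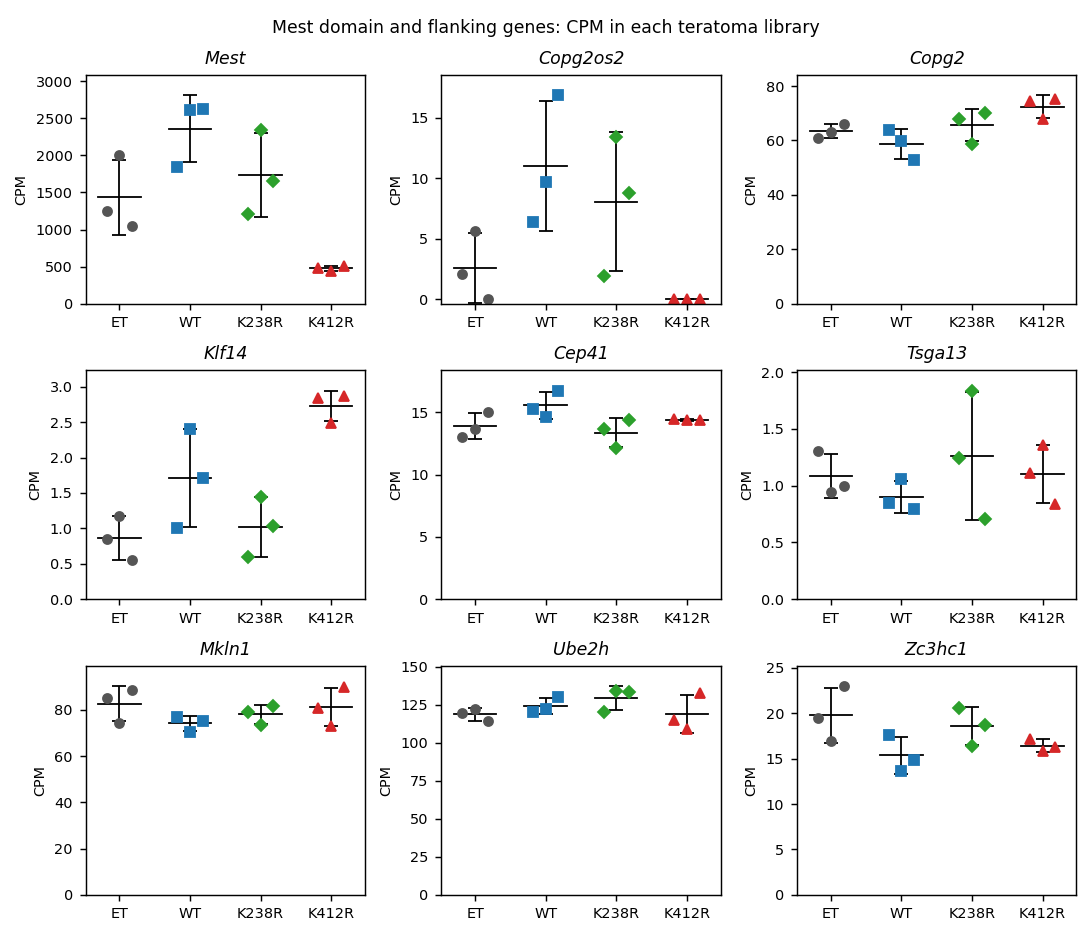
CPM of each of the 9 genes (y axis, linear) in the 12 teratoma libraries by group (x axis), with 1 point per library (K238R marks the K238R-labelled libraries), the mean as a line and the SD (n = 3) as a bar. Mest in K412R lies at 442 to 507 CPM, under all other libraries, Klf14 in K412R at 2.49 to 2.86 CPM, above them, and Copg2os2 at 0 in K412R and in ET replicate 3.

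WT against ET compared teratomas of the cell population with wild-type Dnmt3L with those of the empty-vector population. Each construct was 1 such population, so an effect of Dnmt3L and a difference between the populations cannot be told apart. Mest had a log2 fold change of 0.75 (standard error 0.27), Klf14 of 1.02 (0.42) and Copg2os2 of 2.15 (1.02), and Zc3hc1 of -0.34 (0.14). The adjusted p-values from edgeR's quasi-likelihood test were 0.119 for Mest, 0.141 for Klf14 and 0.146 for Zc3hc1, so none passed 0.05. Copg2os2 is given without a p-value because its WT libraries were part of the choice of the locus. Its place in the counts that follow is a description. Of the 9 members, 0 passed the adjusted test, where 0.0489% of all genes tested did. At an unadjusted p under 0.05 Mest, Klf14 and Zc3hc1 passed, 3 of 9 beside 29.1% of all genes. With DESeq2 1 member passed, Mest, beside 11.1% of all genes. The count rested on ET replicate 2, the ET teratoma with the highest Mest. Without it Mest (1.08, adjusted p = 0.0133) and Zc3hc1 (-0.44, adjusted p = 0.0363) passed edgeR's test, but so did 30.8% of all genes in that fit. The value of Copg2os2 moved with single ET libraries, to 3.47 without ET replicate 2 and 1.56 without ET replicate 3. The other 5 members had log2 fold changes between -0.24 and 0.19.

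No member passed the adjusted test between the K238R-labelled libraries and WT or ET. Against WT, the log2 fold change was -0.49 (standard error 0.27) for Mest, -0.78 (0.41) for Klf14, -0.50 (0.95) for Copg2os2 and -0.26 (0.12) for Cep41. The adjusted p-values from edgeR were 0.349 for Mest, 0.332 for Klf14 and 0.272 for Cep41. Copg2os2 is given without a p-value against WT, and counted as a description, because its WT counts were part of the choice of the locus. None of the 9 passed, beside 0.223% of all genes. Cep41 alone passed at an unadjusted p under 0.05, beside 17.5%, and DESeq2 called 0, beside 4.13%. Against ET, the log2 fold change was 0.27 (standard error 0.27, adjusted p = 0.823) for Mest, 0.24 (0.43, adjusted p = 0.889) for Klf14 and 1.65 (1.02, adjusted p = 0.806) for Copg2os2, all from edgeR. The other members were within 0.20 of 0. None of the 9 passed this test by the adjusted p, the unadjusted p or DESeq2, while 0%, 5.61% and 0.029% of all genes did.

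For K412R, the group used in the choice, the fitted values are given as a description. Against WT the log2 fold change was -2.34 (standard error 0.28) for Mest, 0.65 (0.39) for Klf14 and 0.28 (0.09) for Copg2, and the remaining 5 members with counts in K412R were between -0.13 and 0.28. Against ET it was -1.58 (0.27) for Mest, 1.67 (0.41) for Klf14 and 0.20 (0.09) for Copg2. Zc3hc1 was at -0.26 (0.14), and Cep41, Tsga13, Mkln1 and Ube2h were within 0.06 of 0. Both comparisons share the K412R libraries. Against WT, edgeR's adjusted threshold was passed by 2 of 9 members, Mest and Copg2os2, beside 2.04% of all genes, and without K412R replicate 3 by 0, beside 0.0532% of all genes in that fit. The unadjusted threshold was passed by 3, with Copg2 added, beside 22.8%, and DESeq2 called the same 3, beside 9.26%. Against ET, edgeR's adjusted threshold was passed by 0, beside 0%, and without ET replicate 2 by Mest, beside 1.51%. The unadjusted threshold was passed by 4, Mest, Copg2os2, Copg2 and Klf14, beside 7.91%, and DESeq2 called Mest, Copg2os2 and Klf14, beside 0.472%. Nothing is read from these counts, because the choice used the contrast.

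**Figure D2:**
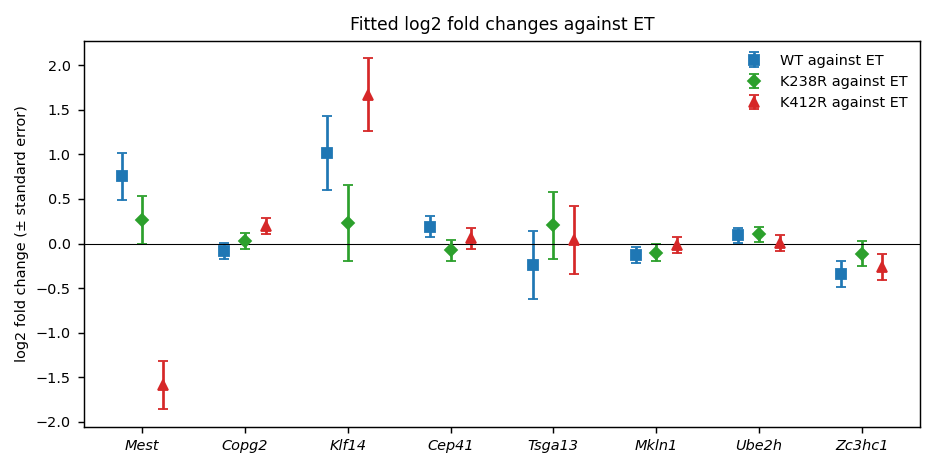
Fitted log2 fold changes against ET (y axis) of the 8 members with counts in every group (x axis), as points with the standard error of the edgeR fit over all 12 libraries (n = 3 a group). Mest is at 0.75 in WT and -1.58 in K412R, Klf14 is at 1.02 and 1.67, and the other 6 members are within 0.34 of 0 in all 3 comparisons.

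Apart from fits, the position of the K412R libraries among the 12 was read directly. Of the 18405 genes, 229 (1.24%) had all 3 K412R libraries below the other 9, among them Mest and no other member. All 3 K412R libraries lay above the other 9 in 266 genes (1.45%), among them Klf14 and no other member. With CPM on TMM-scaled library sizes, Copg2 joined Klf14 among 343 such genes above, and Mest remained the only member among 242 below. Ranked by log2 fold change against ET over the 18405 genes, Mest was at place 141 from the lowest and Klf14 at place 46 from the highest.

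Within the other 9 teratomas, Klf14 and Copg2os2 were high where Mest was high. Over these 9 libraries, on log2(CPM + 0.5), Klf14 correlated with Mest with r = 0.940 (2-sided exact permutation p = 0.0001433, adjusted p = 0.0005732) and rho = 0.967 (exact p = 0.0001653, adjusted p = 0.0006614). For Copg2os2, r was 0.903 and rho 0.917, given without a p because its WT counts were part of the choice of the locus. These are 2 of 8 relations, each of the other members with Mest, and adjustment was over the 8. All permutations shuffled the 9 libraries freely, without regard to group, although teratomas of a group share their starting cells. The permutation p-values take no account of this. The K412R libraries were left out because they formed a cluster of their own.

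Zc3hc1 and Mkln1 ran opposite to Mest over the same 9 libraries. For Zc3hc1, r was -0.963 (exact permutation p = 5.511e-06, adjusted p = 4.409e-05) and rho -0.983 (exact p = 4.96e-05, adjusted p = 0.0003968). For Mkln1, r was -0.898 (exact permutation p = 0.001155, adjusted p = 0.002309) and rho -0.850 (exact p = 0.006074, adjusted p = 0.01215). Copg2 had r = -0.671 (exact permutation p = 0.04534, adjusted p = 0.07254) and rho = -0.783 (exact p = 0.01722, adjusted p = 0.02756). Ube2h, Cep41 and Tsga13 had r of 0.618, 0.179 and -0.054, none with an adjusted exact permutation p under 0.05.

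Without the 2 libraries farthest from the median of Mest, r over the remaining 7 was 0.882 for Klf14, 0.869 for Copg2os2, -0.924 for Zc3hc1, -0.919 for Mkln1 and -0.567 for Copg2. With each group's mean removed, r was 0.905 for Klf14, 0.893 for Copg2os2, -0.941 for Zc3hc1 and -0.840 for Mkln1. The directions were thus the same within groups, as a description without a p-value. Such correlations were not rare in these libraries. Of all 18405 genes, 7.52% had an r with Mest at least as far from 0, in either direction, as that of Klf14, 15.1% as that of Copg2os2, 3.14% as that of Zc3hc1 and 16.3% as that of Mkln1. For Copg2 this share was 49.35%. All genes of a library share its tissue make-up and depth, and the part of these in the relations was not tested.

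**Figure D3:**
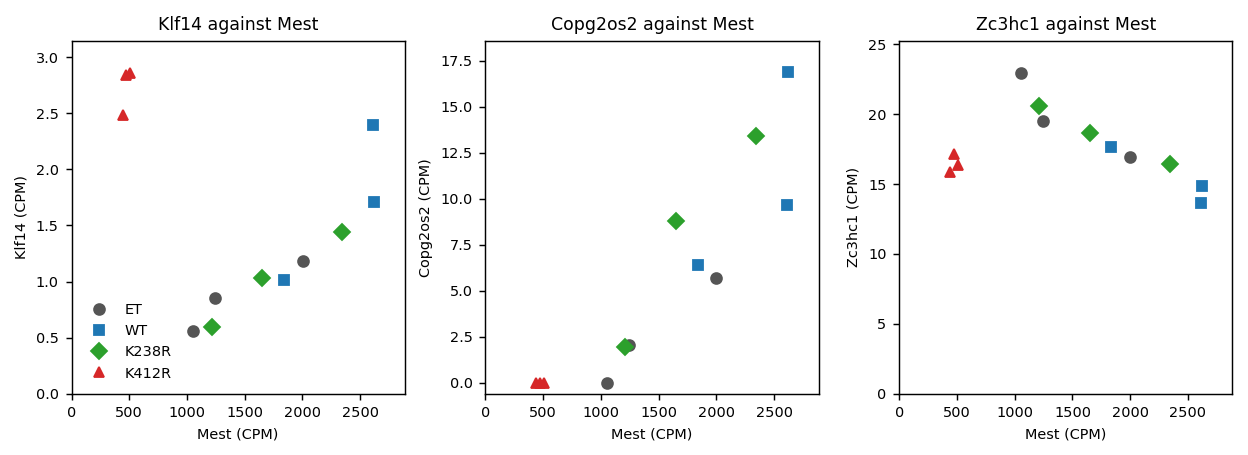
CPM of Klf14, Copg2os2 and Zc3hc1 (y axes) against CPM of Mest (x axis), both linear, with 1 point for each of the 12 teratoma libraries and a colour and shape for each group. In the 9 libraries outside K412R Klf14 and Copg2os2 are higher and Zc3hc1 is lower where Mest is higher, and the 3 K412R libraries, at 442 to 507 CPM of Mest, lie off the course of Klf14.

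Klf14 per Mest was higher in K412R than in all other teratomas, on a scale that the lower Mest of K412R raises by itself. Per 1000 Mest counts, the 9 libraries outside K412R had 0.489 to 0.917 Klf14 counts. The group means were 0.601 ± 0.079 in ET, 0.707 ± 0.189 in WT and 0.577 ± 0.076 in the K238R-labelled libraries, against 5.75 ± 0.193 in K412R (mean ± SD, n = 3). The ratio was of the same order in 3 groups while Mest itself ranged from 1052 to 2623 CPM. Copg2os2 per 1000 Mest counts was 1.49 ± 1.42 in ET, 4.54 ± 1.65 in WT and 4.22 ± 2.27 in the K238R-labelled libraries. For K412R the counts of 0 allowed up to 0.351, 0.384 and 0.332 per 1000 Mest counts, and for ET replicate 3 up to 0.159. The transcript was thus not detected at these limits in K412R even relative to the lower Mest, as it was not in ET replicate 3. Copg2 per 1000 Mest counts averaged 47.7 in ET, 25.9 in WT, 41.2 in the K238R-labelled libraries and 152.7 in K412R. Its K412R values (148.4 to 156.4) also lay above all others (20.14 to 62.65). Lying apart on this scale was thus not particular to Klf14, and the share of all genes that do so was not counted.

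Of the genes around Mest, edgeR's adjusted test called a pair, both in K412R against WT. The 15 tested genes nearest on each side, in the order of the RefSeq annotation, include 23 that are no members. In WT against ET, K238R-labelled against WT, K238R-labelled against ET and K412R against ET, 0 of the 23 passed edgeR's adjusted test. In these, 8, 3, 3 and 3 had an unadjusted p under 0.05, beside 29.1%, 17.5%, 5.61% and 7.91% of all genes. DESeq2 called 3, 1, 0 and 1, beside 11.1%, 4.13%, 0.029% and 0.472%. In K412R against WT, 6 had an unadjusted p under 0.05, beside 22.8% of all genes, and DESeq2 called 3, beside 9.26%. There 2 passed edgeR's adjusted test, beside 2.04%. Cpa4, a carboxypeptidase, was lower (log2 fold change -1.42, standard error 0.32, edgeR adjusted p = 0.0456). Podxl, the sialomucin podocalyxin, was higher (0.89, standard error 0.19, edgeR adjusted p = 0.0382). With each of the 12 libraries left out in turn, Cpa4 passed in 3 fits and Podxl in 6. Against ET, Cpa4 in K412R was at -1.28 (edgeR adjusted p = 0.370). The median of the 23 was -0.03 in K412R against WT and -0.13 in K412R against ET. Strip2, at 1.15 (standard error 0.30, edgeR adjusted p = 0.102), had the largest value in WT against ET. The value farthest from 0 was that of Cpa1 in K238R-labelled against WT (-1.0, standard error 0.81, edgeR adjusted p = 0.509) and that of Cpa4 in K238R-labelled against ET (-0.84, standard error 0.31, edgeR adjusted p = 0.806). The median over all 895 tested genes of chromosome 6 was 0.007 in K412R against WT and 0.003 in K412R against ET, beside 0.010 and -0.019 over all genes.

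**Figure D4:**
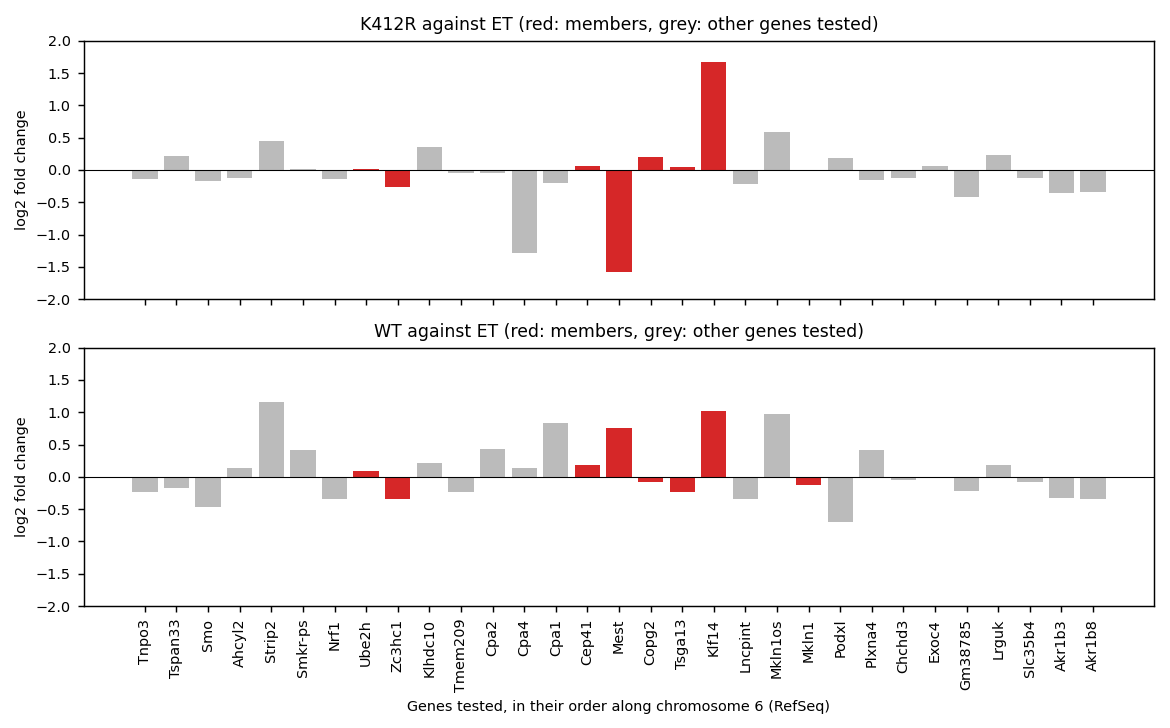
Fitted log2 fold changes (y axis) of the 31 tested genes around Mest, in their order along chromosome 6 (x axis, not to scale), for K412R against ET and WT against ET, with members in red and other genes in grey. Copg2os2 has no place in the annotation and is not drawn. In K412R, Mest (-1.58) and Klf14 (1.67) stand 3 places apart, with Copg2 (0.20) and Tsga13 (0.04) between them, and Cpa4 (-1.28) is the grey bar farthest from 0.

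Of the imprinted genes elsewhere in the genome, 1 passed edgeR's adjusted test. Of 26 tested genes that are transcribed from the paternal copy, as Mest is, 0 passed edgeR's adjusted test in any of the 5 comparisons. DESeq2 called 4 in WT against ET, beside 11.1% of all genes, and 2 in K238R-labelled against WT, beside 4.13%. In K412R against WT it called 3, Peg3, Peg10 and Peg13, beside 9.26%. In K412R against ET, 19 had a log2 fold change above 0 and 7 below it, with a median of 0.09. In K412R against WT, 9 were above and 17 below, with a median of -0.24. The signs of the list thus differed between the comparisons in which Mest was lower. Of 20 tested maternally transcribed genes, only H19, a growth-restraining long non-coding RNA, passed edgeR's test, at 1.94 in K412R against WT (standard error 0.31, edgeR adjusted p = 0.0151). The call of H19 was lost without K412R replicate 1 or without K412R replicate 3, with an adjusted p of at most 0.0726 from edgeR. DESeq2 called H19 in K412R against WT, in WT against ET and in K238R-labelled against WT, and also Rian in K412R against WT and Dcn in WT against ET. The medians of that list were -0.13 in K412R against WT and -0.06 in K412R against ET, beside 0.010 and -0.019 over all genes. At an unadjusted p under 0.05, 13 paternally and 6 maternally transcribed genes passed in WT against ET, beside 29.1% of all genes. These counts were 11 and 6 in K412R against WT, beside 22.8%, and 1 and 1 in K412R against ET, beside 7.91%.

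Genes that set or keep imprints were tested as a list of 15, which holds the methyltransferases, Uhrf1, Zfp57, Zfp445, Trim28, the Tet enzymes and others. Only Dnmt3l, the gene of the construct, passed edgeR's adjusted test, while DESeq2 also called Uhrf1, Trim28 and Tet1 in WT against ET and Zfp57 in K412R against WT. It did so in WT against ET (log2 fold change 5.78, adjusted p = 0.0192), in K238R-labelled against WT (-7.37, adjusted p = 0.00251) and in K412R against WT (-2.49, adjusted p = 0.0367), and these calls held in 6, 12 and 6 of the 12 fits with single libraries left out. In WT against ET 13 of the 15 were below 0, with a median of -0.33, and 8 passed at an unadjusted p under 0.05, beside the 29.1% of all genes given above. In K412R against ET 13 of 15 were below 0, with a median of -0.15 and 2 at an unadjusted p under 0.05, beside 7.91% of all genes.

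Markers of tissues differed between the groups beside Mest. The 12 neuron markers summed to 2936 to 3447 CPM in K412R, below the 3754 to 4000 of ET, the 3781 to 5003 of WT and the 4215 to 5110 of the K238R-labelled libraries. All 12 were below 0 in K412R against ET, with a median log2 fold change of -0.12, and in K412R against WT, with a median of -0.59. Against ET 3 of them had an unadjusted p under 0.05, beside 7.91% of all genes, and edgeR's adjusted test and DESeq2 called 0. Elavl3, a neuronal RNA-binding protein, passed edgeR's adjusted test against WT (-0.70, adjusted p = 0.0188), and it passed in 8 of 12 fits with single libraries left out. DESeq2 called 6 of the 12 against WT, beside 9.26% of all genes. The 10 markers of surface epithelium and gut summed to 510.8 to 645.9 CPM in K412R and to 300.5 to 427.1 CPM in the other 9 libraries. Of single genes, 1.24% had all K412R libraries below the other 9 and 1.45% above them. No such share was taken for sums of markers. Against ET the median log2 fold change of these 10 markers was 0.46, with 7 above 0 and 3 below. There 6 had an unadjusted p under 0.05, beside 7.91% of all genes, and edgeR's adjusted test and DESeq2 called 0. Against WT edgeR called 0 and DESeq2 4, beside 9.26%. The part of these tissues in the values of Mest and Klf14 was not tested.

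Mest is known to be abundant in mesenchyme. The 14 mesenchyme markers summed to 2042 to 3049 CPM in K412R, 1625 to 4528 in ET, 3403 to 5521 in WT and 1307 to 2070 in the K238R-labelled libraries, so K412R lay below WT, as Mest did, and within the range of ET. The part of mesenchyme in the values of Mest was not tested. In K412R against WT, edgeR called 3 of them, beside 2.04% of all genes: Prrx1 (-0.78) and Postn (-0.56) lower and Tbx18 (1.18) higher. In K238R-labelled against WT it called Postn (-1.23), beside 0.223%. There DESeq2 called 7 of the 14, beside 4.13%, and 9 had an unadjusted p under 0.05, beside 17.5%. With single libraries left out the edgeR calls held in 4, 5, 9 and 12 of 12 fits. Skeletal muscle markers summed to 253.6 to 264.8 CPM in K412R, 189.9 to 570.7 in ET and 440.3 to 3651 in WT. Fat cell markers summed to 5.71 to 13.0 CPM in K412R, 5.17 to 10.8 in ET and 12.7 to 61.1 in WT. edgeR called 0 muscle and 0 fat cell markers in any comparison. In K412R against WT, 7 of 10 and 5 of 6 tested had an unadjusted p under 0.05, beside 22.8% of all genes. DESeq2 called 4 and 1 there, beside 9.26%. Motile cilium markers summed to 383.5 to 529.0 CPM in K412R, 288.5 to 448.4 in ET and 400 to 415.9 in WT, so K412R overlapped both. In K412R against WT, 3 of the 10 were above 0 and 7 below, with a median log2 fold change of -0.12. The dyneins Dnah9 (0.52) and Dnah11 (1.07) were called higher there by edgeR, beside 2.04% of all genes, against the sign of most of their list. Dnah11 was also called in WT against ET (-0.80) and in K238R-labelled against WT (0.64), calls that held in 2 and 3 of 12 such fits. Germ cell and testis markers summed to 33.9 to 126.3 CPM in ET, 16.0 to 28.1 in WT, 66.3 to 85.4 in the K238R-labelled libraries and 27.7 to 51.9 in K412R. Of the 7 tested, edgeR called 0 in any comparison. DESeq2 called 3 in WT against ET, beside 11.1% of all genes, and 4 in K238R-labelled against WT, beside 4.13%. An unadjusted p under 0.05 was reached by 4 and 6 there, beside 29.1% and 17.5%. Trophoblast markers summed to at most 22.3 CPM in any library, and Prl3b1, a placental lactogen, was called in K412R against WT (4.51) and in 2 of 12 fits with single libraries left out.

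The genes whose levels over the 12 libraries were most like those of Mest were named by Pearson's r on log2(CPM + 0.5) among 13081 genes with a mean of at least 5 CPM, as a description. For Mest these were Rabif (r = 0.952), Mia3 (0.937), Zbtb37 (0.933), Elavl3 (0.932) and Dus3l (0.930). Elavl3, which is also a neuron marker above, had mean CPM of 234.4 in ET, 296.2 in WT, 285.2 in the K238R-labelled libraries and 184.9 in K412R. Rabif, a binding protein of Rab GTPases, had 31.4, 36.0, 32.5 and 24.8. The group means of these 5 genes differed less than those of Mest.

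For Copg2os2 the most alike genes were Rgs8 (r = 0.968), Kif21b (0.967), Dus3l (0.966), Cmas (0.959) and Parp6 (0.956). Rgs8, a regulator of G protein signalling, had mean CPM of 26.2 in ET, 39.8 in WT, 35.6 in the K238R-labelled libraries and 16.9 in K412R, and Kif21b, a kinesin of neurons, had 291.8, 429.6, 385.6 and 227.4. For Klf14, ranked in the same way after its values were seen, they were Ppl (r = 0.926), Klf5 (0.912), Tst (0.898), Exph5 (0.897) and Gabre (0.887). Ppl codes for periplakin of the surface epithelium, and had mean CPM of 15.9 in ET, 23.1 in WT, 16.5 in the K238R-labelled libraries and 30.6 in K412R. Klf5, another Krüppel-like factor of epithelia, had 48.0, 57.2, 45.2 and 71.5. All 5 genes named for Klf14 had K412R highest and WT next, as Klf14 had. The ranking by likeness to Klf14 over the same libraries selects for such an order, so nothing is read from it.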

How the data were processed

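Poly(A) RNA of 3 teratomas per group was made into libraries with the CORALL kit. The authors deposited 1 table of estimated counts per library. Fastp, STAR, Salmon and GATK and build GRCm39 stand in the submitters' processing notes, and the gene annotation and the strand setting are not given in the sources used here. The estimated counts are not normalized, and they are whole numbers. Members and gene lists were chosen with earlier results of these data known.

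Counts were divided by the library total (CPM). edgeR 4.0.16 in R 4.3.3 was run with TMM scaling, its filter on low counts and the robust quasi-likelihood test, with 1 mean per group over the 12 libraries and Benjamini-Hochberg adjustment over 18405 genes. Robust estimation was set after seeing the data, to match earlier processing. DESeq2 1.42.0, other scalings and filters, fits of 2 groups, a replicate block and fits without each library were alternatives. The named genes are the 9 members, every tested neighbour or list gene with an adjusted p under 0.05, the neighbour farthest from 0, and the 5 genes most correlated with Mest and Copg2os2. Klf14 was added to that ranking after its values were seen, and Rgs8, Kif21b, Ppl, Klf5 and Rabif were picked from it for their values, as were the list genes named for a DESeq2 call. RefSeq tables of build GRCm38.p6 gave gene order (8 of 9 members matched) and promoter windows. The library totals (16957677 to 18546100 counts) limit the precision of low counts such as those of Klf14, and intervals and limits cover counting error only. No label says that the teratomas of a group came from separate cell cultures, so p-values measure the spread between these tumours.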

Additional observations from a re-analysis of the deposited data

How the results depend on the processing

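Of the 9 members, 0 were called in WT against ET, which became 1 (Mest) with DESeq2 and 0 to 2 with single libraries left out. The K412R counts that follow are a description and nothing is read from them, because the choice of the locus used K412R against WT. The 2 calls in K412R against WT became 1 without a filter on low counts, 1 with the replicate block, and 0 to 2 with single libraries left out. Mest lost its call there without K412R replicate 3, and Copg2os2 lost its own in 9 of those 12 fits. The 0 calls in K412R against ET became 3 with DESeq2 and 0 to 1 with single libraries left out. Both comparisons of the K238R-labelled libraries kept 0 calls throughout. The replicate block changed no other call of a member. Over all genes, the block gave more calls in WT against ET, in K238R-labelled against WT and in K412R against WT. It gave 0 calls against ET for the K238R-labelled libraries and for K412R, as did the fit without it. Of 18 pairs of libraries with a shared number, 7 correlated above 0.1 (r from -0.215 to 0.334). For the 36 pairs with different numbers r ranged from -0.388 to 0.359. These ranges overlap, so they do not decide whether the numbers pair the samples.

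Signs near 0 turned in fits with single libraries left out. In K238R-labelled against WT, Mkln1 ranged from -0.006 to 0.059 and Ube2h from -0.029 to 0.068. In K238R-labelled against ET, Mest ranged from -0.031 to 0.591, Copg2 from -0.004 to 0.090, Klf14 from -0.113 to 0.529, Tsga13 from -0.183 to 0.507 and Zc3hc1 from -0.205 to 0.023. In K412R against ET, Tsga13 ranged from -0.154 to 0.252, Mkln1 from -0.07 to 0.048 and Ube2h from -0.021 to 0.048. Copg2os2 lay between 1.56 and 3.47 in WT against ET and between 1.04 and 2.98 in K238R-labelled against ET. The cause was not tested. Over all alternatives Mest lay between -2.50 and -2.23 in K412R against WT and between -1.76 and -1.25 in K412R against ET, and Klf14 between 1.44 and 1.97 in K412R against ET. In WT against ET, the adjusted p of Mest lay between 0.0133 and 0.415. Of the 5 genes most like Copg2os2, 3 were shared under TMM-scaled CPM.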
